A study of Mus musculus with 9 samples.

Results

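Malat1 and Neat1 are long non-coding RNAs that stay in the nucleus, measured here at 3 stages of mouse skeletal muscle stem cells. They are 2 of the 45706 genes in the deposited table, found there by gene name, and both passed the filter on low values. The pair was chosen by its measured levels and library shares in these same 9 libraries, so those values and their differences are given as a description, without a test. RNA sequencing was done on satellite cells, the stem cells lying on muscle fibres, from wild-type C57Bl6 mice of 12 to 20 weeks. One group of cells was freshly isolated, 1 was proliferating, kept for no fewer than 3 days in a medium holding 20% FCS and 2.5 ng/ml human FGF-2, and 1 had become myotubes, the fused, differentiating cells, after 6 more days in a medium holding 2% horse serum. Each stage had 3 libraries from different animals, 9 in all, and no genotype or drug treatment was varied. Whole RNA depleted of ribosomal RNA went into the libraries, so RNAs without a poly(A) tail could be measured.

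Malat1 is among the most abundant nuclear RNAs of mammalian cells and collects in nuclear speckles, bodies rich in splicing factors. Neat1 is the scaffold of paraspeckles, nuclear bodies built when proteins such as Nono and Sfpq bind the RNA as it is made. Malat1 and the long form of Neat1 do not end in an ordinary poly(A) tail: RNase P cuts the transcript just before a tRNA-like structure, and the new end is shielded by U-rich stretches that fold onto a downstream A-rich tract. In cultured muscle precursors Malat1 has been reported to act with the chromatin proteins Suv39h1, Cbx1 and Hdac1 on the targets of MyoD.

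Both genes lie on the minus strand of chromosome 19 (GRCm38, GENCODE vM21 annotation) and have the annotated type lincRNA. Malat1 (ENSMUSG00000092341) spans chr19:5795690-5802672 with 6983 exonic bases, and Neat1 (ENSMUSG00000092274) spans chr19:5824708-5845478 with 20771. They are 22.0 kb apart. Neat1 has a short and a long form that share their start, and values per gene do not separate them. Of the other annotated genes, 2 lie within Malat1 (Gm27694 and Gm37376, the second on the opposite strand) and 3 within Neat1 (Gm27533, Gm27505 and Gm28006), and all 5 were listed at 0 in all 9 libraries. As each overlaps Malat1 or Neat1, a value of 0 does not show that its RNA was absent.

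The ends of the 2 transcripts are shown because they carry the feature the RNAs share and most other long RNAs lack. Capitals mark the longest run common to the last 500 bases of both transcripts, 16 bases and U-rich, and the longest common run after it, 11 bases and A-rich. The letters are DNA letters of the transcript strand, 5′ to 3′, from GENCODE vM21 transcripts.
Malat1, chr19:5795922-5796093, minus strand: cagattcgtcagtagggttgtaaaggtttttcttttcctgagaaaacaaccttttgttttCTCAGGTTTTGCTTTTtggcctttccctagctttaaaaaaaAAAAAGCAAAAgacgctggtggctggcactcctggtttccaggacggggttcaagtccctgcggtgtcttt
Neat1, chr19:5824708-5824826, minus strand: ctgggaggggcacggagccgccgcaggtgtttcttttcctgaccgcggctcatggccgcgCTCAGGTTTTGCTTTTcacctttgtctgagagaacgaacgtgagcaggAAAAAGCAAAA
Gm27702, chr19:5824652-5824707, minus strand: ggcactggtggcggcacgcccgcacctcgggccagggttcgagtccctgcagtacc
The runs are separated by 25 bases in Malat1 and by 32 in Neat1. The A-rich run is the last thing in the annotated Neat1 transcript, whereas the annotated Malat1 transcript goes on for 292 bases. The first 60 of these are included above. Gm27702, annotated as a small RNA of 56 bases, starts at the base after the Neat1 end. In a local alignment 37 of 50 columns were identical between it and the 60 bases of Malat1 after the A-rich run, which is 74%, with 1 gap column. Gm27702 itself was listed at 0 to 7 normalized read counts per library.

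The deposited values are read counts per gene that the authors scaled between libraries and rounded; they are named normalized read counts in what follows. Their sums were 20.1 to 26.2 M in freshly isolated, 17.8 to 18.2 M in proliferating and 19.5 to 20.8 M in myotube libraries. Low values of a library lie on steps of 1 read, and the width of the steps gave estimates of 12.0 to 19.3 M, 20.4 to 24.2 M and 22.0 to 22.8 M counted reads for the same stages. One gene, the lincRNA model Gm26917, took 22.2, 10.6 and 11.2% of the freshly isolated libraries, 8.53 to 11.0% of the proliferating and 2.88 to 3.36% of the myotube libraries, and shares of the library total move with it. Satellite cell, cell division and myotube markers were each highest at the stage they stand for: 8 satellite cell markers summed to 56104 to 60309, 14076 to 16394 and 10387 to 11228, 6 cell division markers to 133 to 745, 45175 to 49844 and 14189 to 23642, and 7 myotube markers to 2481 to 6731, 98762 to 210124 and 887574 to 988849 normalized read counts, in the order freshly isolated, proliferating, myotubes. In the same order, markers of other cells summed to 2865 to 4450, 30 to 35 and 63 to 80 (6 fibro-adipogenic), 701 to 805, 58 to 80 and 244 to 261 (6 leukocyte, Adgre1 at 0 in the first 2 stages), 105 to 227, 54 to 98 and 20 to 28 (6 endothelial), 1087 to 1413, 1789 to 2297 and 1960 to 2282 (6 mural), 197 to 303, 89 to 95 and 60 to 99 (5 Schwann cell) and 15 to 23, 50 to 96 and 4 to 10 (5 erythroid, Hbb-bt at 0 in all 9 libraries). The 8 adult myofibre markers summed to 2657 to 2963, 1880 to 6006 and 122746 to 159315. They are muscle genes and share Ckm with the 7 myotube markers, so they do not set myofibres apart from myotubes. The 2 cultured stages were not sharply separated by these sums. Proliferating libraries held myotube markers, at 98762, 197537 and 210124 in replicates 1, 2 and 3, and myotube libraries held cell division markers. The mix of cells in each library was not measured.

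Other properties moved with the stages, and their part in the results below was not tested. The 12 immediate early and dissociation stress genes, among them Fos, Egr1 and Hspa1a, summed to 586532, 523263 and 503167 in freshly isolated, 14822, 16000 and 15243 in proliferating and 13703, 14051 and 14329 in myotube libraries. The 3 myotube libraries also stood apart in sex-linked genes, which were looked at after the values were seen. Xist, the RNA that silences an X chromosome in female cells, had normalized read counts of 28464, 38044 and 38186 in freshly isolated cells, 12696, 10966 and 11043 in proliferating cells and 2, 1 and 3 in myotubes. The Y-linked genes Ddx3y, Eif2s3y, Kdm5d and Uty lay between 1313 and 3599 in every myotube library, against 0 to 3 in the proliferating and freshly isolated libraries. The labels used here give no sex. In every comparison with myotubes, stage and the sex of the animals cannot be told apart.

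Malat1 was highest in freshly isolated cells, lowest in proliferating cells and between the 2 in myotubes. Its normalized read counts were 493495, 490380 and 412320 in freshly isolated cells, 59186, 60035 and 57575 in proliferating cells and 122896, 108293 and 128328 in myotubes. No library of one stage reached into the range of another. Per kb of exon, Malat1 averaged 66647 ± 6587, 8439 ± 179 and 17162 ± 1484 normalized read counts in freshly isolated cells, proliferating cells and myotubes (SD, n = 3 each). The coefficient of variation was 9.88% in freshly isolated cells, 2.12% in proliferating cells, whose libraries were the most alike, and 8.65% in myotubes.

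Neat1 was also highest in freshly isolated cells, but it was lowest in myotubes. Its normalized read counts were 176418, 154130 and 127982 in freshly isolated cells, 18182, 12756 and 15060 in proliferating cells and 4526, 4443 and 5040 in myotubes, again with no overlap between stages. Per kb it averaged 7358 ± 1167, 738 ± 131 and 225 ± 15.6 in freshly isolated cells, proliferating cells and myotubes (SD, n = 3 each). For these values Neat1 was divided by all its 20771 exonic bases, and its short and long forms were not separated. Its libraries spread more than those of Malat1 in the first 2 stages, with coefficients of variation of 15.9% and 17.8%, and less in myotubes, with 6.93%. In reads, estimated from the spacing of the values, Neat1 rested on 4895 to 146303 reads per library and Malat1 on 66102 to 465477.

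As a share of the library total, Malat1 made up 1.88, 2.41 and 2.05% of the freshly isolated, 0.333, 0.331 and 0.324% of the proliferating and 0.604, 0.557 and 0.618% of the myotube libraries. Neat1 made up 0.673, 0.756 and 0.636% of the freshly isolated, 0.102, 0.0703 and 0.0848% of the proliferating and 0.0223, 0.0228 and 0.0243% of the myotube libraries. Together the 2 RNAs held 2.56 to 3.16% of all normalized reads in freshly isolated cells, 0.401 to 0.435% in proliferating cells and 0.579 to 0.642% in myotubes. The order of the stages was the same for shares as for levels. Freshly isolated replicate 1 has the lowest Malat1 share of its stage although its normalized read count is the highest, and it is the library with 22.2% of Gm26917. With Gm26917 left out of the total, Malat1 averaged 2.47 ± 0.197, 0.366 ± 0.0071 and 0.612 ± 0.0319% in the 3 stages (SD, n = 3 each), and Neat1 0.809 ± 0.0807, 0.0956 ± 0.0191 and 0.0239 ± 0.001%.

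**Figure D1:**
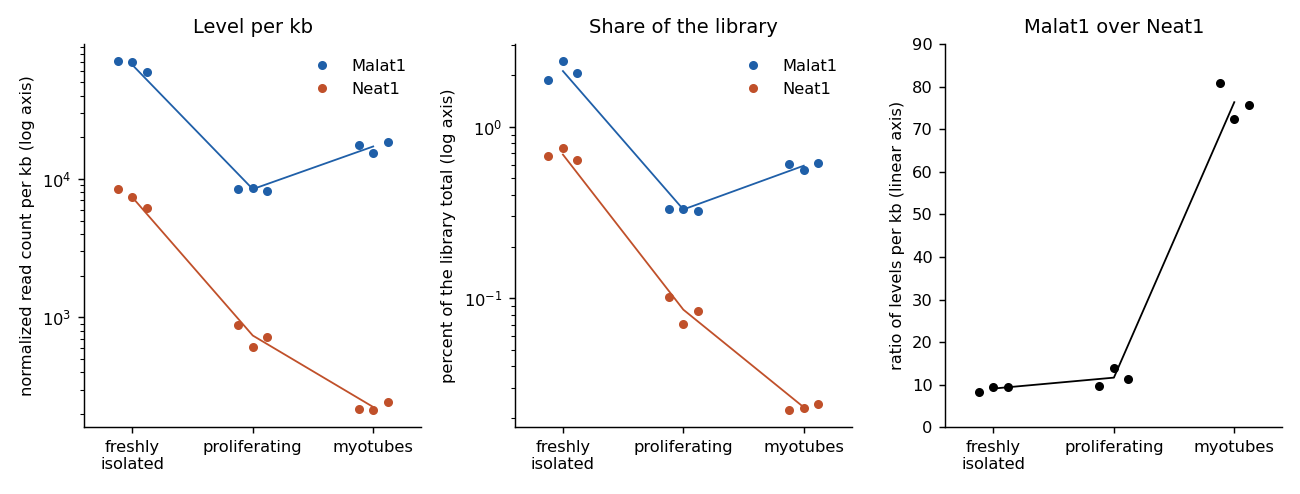
Malat1 (blue) and Neat1 (orange) in each of the 9 libraries (points, 3 per stage) with stage means joined by lines: normalized read count per kb of exon on a log axis (left), percent of the library total on a log axis (middle) and the ratio of their levels per kb on a linear axis (right). Malat1 is lowest in proliferating cells and Neat1 is lower at each later stage, and the ratio lies between 8.32 and 14.0 in the first 2 stages and between 72.5 and 80.8 in myotubes.

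Ranked by normalized read count per kb among the 45143 genes with an exon length in GENCODE vM21, Malat1 was at place 4 to 7 in freshly isolated, 26 to 29 in proliferating and 27 to 28 in myotube libraries. Neat1 was at place 48 to 58, 710 to 1204 and 3526 to 3837. Malat1 thus had nearly the same place in proliferating cells and myotubes, while its level was 2.03-fold higher in myotubes. Set among 30 other tested long non-coding RNAs, the highest of 32 per kb was Malat1 in all 3 freshly isolated libraries, with Neat1 next. In proliferating cells and myotubes Malat1 was at place 2 of the 32 in every library. Neat1 was at place 3 or 4 in proliferating cells and at place 7 or 9 in myotubes. The 30 come from a chosen list without Gm26917, so these are places within that list only.

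The balance of the 2 RNAs lay furthest towards Malat1 in myotubes. The level of Malat1 per kb of exon was 8.32, 9.46 and 9.58 times that of Neat1 in freshly isolated cells, 9.68, 14.0 and 11.4 times in proliferating cells and 80.8, 72.5 and 75.7 times in myotubes. The proliferating and freshly isolated libraries adjoined, with 9.68 against 9.58 at the nearest, and the myotube libraries lay far above both. A ratio within a library does not depend on how the libraries were scaled. It shows unequal change in the reads of the 2 RNAs and not which of them changed. How much of Neat1 was its short form is not known here. The ratios and the places of Neat1 per kb are therefore not counts of molecules, and a shift between its forms was not tested.

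Proliferating cells, set against freshly isolated cells, had less of both RNAs. On the log2(value + 1) scale the difference was -2.98 for Malat1, which is 7.87-fold lower in proliferating cells, and -3.32 for Neat1, which is 9.99-fold lower. Leaving out any 1 library moved these only within -3.06 to -2.93 and -3.45 to -3.19. Freshly isolated replicate 1, with the fewest estimated reads and the largest share of Gm26917, and proliferating replicate 1 left out together gave -2.94 and -3.34. With libraries scaled to equal totals the differences were -2.67 and -3.02, and the median over all genes tested moved by a similar amount, 0.369 instead of 0.066. The stages differed widely: the median absolute log2 change over all genes tested was 1.28 in this comparison, 0.77 in myotubes against proliferating cells and 1.51 in myotubes against freshly isolated cells. Of all genes tested, 37.6% were called higher and 35.7% lower in proliferating cells by limma at a Benjamini-Hochberg adjusted p below 0.05. Malat1 and Neat1 were selected on values of these stages, so nothing is read from these shares for them. In bulk samples such as these, fewer cells of a type and less RNA per cell cannot be told apart.

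Myotubes, set against proliferating cells, had more Malat1 and less Neat1. The log2 difference was 1.02 for Malat1, 2.03-fold higher in myotubes, and -1.70 for Neat1, 3.25-fold lower. The ranges with 1 library left out were 0.97 to 1.09 and -1.83 to -1.57. Of all genes tested, 28.6% were called higher and 25.5% lower in myotubes in this comparison, 4951 against 4402 genes. With libraries scaled to equal totals the split was 3904 against 4993, and with Gm26917 left out of the totals 3643 against 5725. Set against freshly isolated cells, myotubes had 3.88-fold less Malat1 (log2 difference -1.96) and 32.5-fold less Neat1 (log2 difference -5.02), beside 40.2% of genes called higher and 37.3% lower. The 3 comparisons share libraries 2 by 2 and are not independent of each other.

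The order in which Malat1 stood, freshly isolated above myotubes above proliferating with no overlap between libraries, was met by 1111 of the 17291 genes, or 6.43%. The order of Neat1, freshly isolated above proliferating above myotubes, was met by 1741, or 10.1%. These shares describe how common such orders are and do not test the 2 genes.

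Genes of paraspeckle proteins, the partners of Neat1, rose and fell about as often as all genes in proliferating against freshly isolated cells, and most of them fell in myotubes against proliferating cells. Of 32 listed genes 31 were tested, all but Bcl11a. Only RNA was measured, here and for the lists below, so amounts of protein and numbers of nuclear bodies are not known. In proliferating against freshly isolated cells 14 rose (45.2%, beside 37.6% of all genes) and 12 fell (38.7%, beside 35.7%), with a median log2 change of 0.12 beside 0.07 over all genes. With libraries scaled to equal totals 15 rose and 7 fell, where 43.0% of all genes were called higher and 28.8% lower, so that these shares too lie near the background. Between myotubes and proliferating cells 4 rose in myotubes (12.9%, beside 28.6%) and 20 fell (64.5%, beside 25.5%), and the median was -0.48 beside 0.04. In myotubes against freshly isolated cells 6 rose (19.4%, beside 40.2%) and 14 fell (45.2%, beside 37.3%), with a median of -0.29 beside 0.10.

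Among the proteins that form the paraspeckle core, Nono, an RNA-binding partner of Sfpq, was higher in proliferating cells, where Neat1 was lower. It had 6729, 7111 and 6190 normalized read counts in proliferating cells, against 3183, 2263 and 2646 in freshly isolated cells, a log2 change of 1.32 ± 0.13 (SE) with a limma adjusted p of 5.82e-06. In myotubes it had 5041, 5294 and 4461, so that its level lay between those of the other stages. Sfpq, which is needed for paraspeckles to form, was lower at each later stage, with 23655, 23628 and 21726 in freshly isolated cells, 12714, 12944 and 11081 in proliferating cells and 4524, 4901 and 4087 in myotubes. Its log2 change was -0.91 ± 0.10 (SE) in proliferating against freshly isolated cells (limma adjusted p = 1.56e-05) and -1.44 ± 0.10 (SE) in myotubes against proliferating cells (limma adjusted p = 2.53e-06). In myotubes against freshly isolated cells its log2 change was -2.36 ± 0.10 (SE) (limma adjusted p = 1.44e-08). Sfpq thus had the stage order of Neat1, with a smaller range.

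Pspc1, a further protein of the Nono and Sfpq family, had 1442, 1522 and 1439 in proliferating cells, against 1848, 2899 and 2375 in freshly isolated cells (log2 change -0.67 ± 0.14 (SE), limma adjusted p = 0.00154), and the call was lost with libraries scaled to equal totals (log2 change -0.37, limma adjusted p = 0.141). Between myotubes and proliferating cells its log2 change was -0.15 ± 0.14 (SE) with a limma adjusted p of 0.413. Rbm14, which bridges paraspeckle subunits, had 325, 318 and 292 in myotubes, against 699, 625 and 636 in proliferating cells (log2 change -1.07 ± 0.12 (SE), limma adjusted p = 4.07e-05). Nono had a log2 change of -0.44 ± 0.13 (SE) in myotubes against proliferating cells (limma adjusted p = 0.0143), so that Nono, Sfpq and Rbm14 were all lower in myotubes by the test. For Nono that call did not hold when proliferating replicate 2 was left out (limma adjusted p = 0.0535), nor when myotubes replicate 3 was (limma adjusted p = 0.0627).

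Other genes of the paraspeckle list changed in either direction. Ahdc1, a DNA-binding protein, had 1660, 1712 and 1818 in proliferating cells, against 10428, 8015 and 7746 in freshly isolated cells (log2 change -2.32 ± 0.11 (SE), limma adjusted p = 4.62e-08). Hnrnph1, an RNA-binding protein of splicing, had 8507, 9237 and 7766 in proliferating cells, against 26335, 25216 and 20363 in freshly isolated cells (log2 change -1.49 ± 0.12 (SE), limma adjusted p = 1.58e-06). Both were lower in the stage where Neat1 was lower too. Smarca4, the ATPase of the SWI/SNF chromatin remodeller, was higher in proliferating cells, with 12516, 13025 and 11938 in proliferating cells, against 5811, 4051 and 4211 in freshly isolated cells (log2 change 1.43 ± 0.14 (SE), limma adjusted p = 5.05e-06), and it had 4541, 4918 and 4115 in myotubes. Arid1b, a subunit of the same complex, had 6403, 5951 and 6401 in freshly isolated cells, 2535, 2522 and 2419 in proliferating cells and 1939, 1922 and 2067 in myotubes, the stage order of Neat1. Aktip had the largest rise of the list in myotubes, 2733, 2219 and 2829, against 414, 527 and 500 in proliferating cells (log2 change 2.43 ± 0.15 (SE), limma adjusted p = 1.41e-06), and Fam98a rose at both steps, with 368, 432 and 417 in freshly isolated cells, 1011, 1103 and 917 in proliferating cells and 1774, 1504 and 1665 in myotubes.

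Genes of nuclear speckle proteins, the neighbours of Malat1 in the nucleus, were more often lower than higher at each step. The exception was proliferating cells with libraries scaled to equal totals, where as many rose as fell. All 32 listed genes were tested. In proliferating against freshly isolated cells 6 rose (18.8%, beside 37.6% of all genes) and 15 fell (46.9%, beside 35.7%), and with libraries scaled to equal totals 9 of 32 rose and 9 fell, beside 43.0 and 28.8% of all genes under that scaling. In myotubes against proliferating cells 6 rose (18.8%, beside 28.6%) and 17 fell (53.1%, beside 25.5%). In myotubes against freshly isolated cells 4 rose (12.5%, beside 40.2%) and 24 fell (75.0%, beside 37.3%). The medians of the list were -0.42, -0.57 and -0.86 in these comparisons, beside 0.07, 0.04 and 0.10 over all genes.

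Within this list the stage order of Malat1 appeared in some members and not in others. Srsf5, a splicing factor of the SR family, had 10144, 9162 and 8651 in freshly isolated cells, 3685, 3732 and 3193 in proliferating cells and 5724, 5697 and 5398 in myotubes, lowest in proliferating cells and higher in myotubes (log2 change 0.67 ± 0.09 (SE) against proliferating cells, limma adjusted p = 0.000177). Sf3b1, a part of the U2 snRNP that recognises branch points, had 21651, 24375 and 22998 in freshly isolated cells, 7035, 7864 and 7056 in proliferating cells and 8601, 9023 and 8247 in myotubes; its log2 change of 0.24 in myotubes against proliferating cells (limma adjusted p = 0.0428) turned to -0.04 with libraries scaled to equal totals without Gm26917. That call was also lost when freshly isolated replicate 3, proliferating replicate 1 or 3 or any myotube library was left out (limma adjusted p = 0.0521 to 0.13). Srrm2, a scaffold protein of nuclear speckles, had 63629, 65242 and 60842 in freshly isolated cells, 33658, 30323 and 30097 in proliferating cells and 9754, 10926 and 10129 in myotubes, lower at each later stage as Neat1 was. Its log2 change was -1.01 ± 0.10 (SE) in proliferating against freshly isolated cells and -1.61 ± 0.10 (SE) in myotubes against proliferating cells (limma adjusted p = 5.07e-06 and 1.28e-06). Sf1, which binds the branch point, had 16424, 17849 and 16950 in freshly isolated cells, 7504, 7864 and 7008 in proliferating cells and 3106, 3380 and 2857 in myotubes, in the same order. Srsf2 and U2af2, splicing factors for exons and for the polypyrimidine tract, and Srrm1, a splicing coactivator, had their largest step in myotubes, with log2 changes of -1.28 ± 0.10 (SE), -1.29 ± 0.08 (SE) and -1.18 ± 0.11 (SE) against proliferating cells.

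Most genes listed for 3′ end processing and nuclear RNA turnover rose in both comparisons with freshly isolated cells. The list mixes RNase P and other tRNA-processing factors with general factors of nuclear RNA turnover, such as the RNA exosome. Their action on Malat1 and Neat1 was not tested. Of 23 listed genes 22 were tested, all but Rpp25. In proliferating against freshly isolated cells 18 rose (81.8%, beside 37.6% of all genes) and 3 fell (13.6%, beside 35.7%), with a median log2 change of 1.46 beside 0.07. In myotubes against proliferating cells 2 rose (9.09%, beside 28.6%) and 9 fell (40.9%, beside 25.5%). In myotubes against freshly isolated cells 16 rose (72.7%, beside 40.2%) and 3 fell (13.6%, beside 37.3%). The 3 that fell in proliferating cells were Pop5, a subunit of RNase P, and Pabpn1 and Zfc3h1, which take part in the nuclear turnover of polyadenylated RNA.

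RNase P, the enzyme that cuts both transcripts, had several subunits among the largest rises. Pop1, its largest protein subunit, had 1710, 1739 and 1603 in proliferating cells, against 142, 197 and 130 in freshly isolated cells (log2 change 3.44 ± 0.15 (SE), limma adjusted p = 2.4e-08), and 943, 912 and 813 in myotubes. Pop7 had 182, 179 and 198 in proliferating cells, against 17, 29 and 37 in freshly isolated cells (log2 change 2.77 ± 0.28 (SE), limma adjusted p = 7.59e-06). Rpp38 had 7, 40 and 57 in freshly isolated cells, 199, 257 and 205 in proliferating cells and 340, 329 and 343 in myotubes, with a log2 change of 3.04 in proliferating against freshly isolated cells (limma adjusted p = 0.000856) that was 2.17 without freshly isolated replicate 1. Rpp14 had 0, 58 and 57 in freshly isolated cells, 218, 207 and 254 in proliferating cells and 387, 321 and 459 in myotubes; freshly isolated replicate 1 was listed at 0, and its log2 change in proliferating cells was 3.91, 1.95 without that library and 4.88 or 4.89 without either of the other freshly isolated libraries. Rpp25l, a relative of the subunit Rpp25, had 59, 36 and 33 in freshly isolated cells, 130, 153 and 147 in proliferating cells and 310, 216 and 283 in myotubes. These are low values, and in freshly isolated cells some rest on few reads.

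Other genes of this list rose too in proliferating cells. Elac2, the RNase Z that trims the tRNA-like product, had 1822, 1481 and 1502 in proliferating cells, against 634, 527 and 615 in freshly isolated cells (log2 change 1.43 ± 0.12 (SE), limma adjusted p = 1.99e-06), and 670, 714 and 779 in myotubes. Exosc2, a subunit of the RNA exosome, had 1219, 1091 and 1015 in proliferating cells, against 296, 394 and 284 in freshly isolated cells (log2 change 1.78 ± 0.14 (SE), limma adjusted p = 1.23e-06), and 497, 485 and 469 in myotubes. Dis3, a nuclease of the exosome, had 1410, 1515 and 1578 in freshly isolated cells, 2887, 2957 and 2569 in proliferating cells and 1418, 1515 and 1346 in myotubes. All 3 were highest in proliferating cells, where Malat1 was lowest, whereas Rpp14, Rpp38 and Rpp25l of the same list were highest in myotubes.

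Of 12 genes reported elsewhere as partners or regulators of the 2 RNAs, 5 rose (41.7%, beside 37.6% of all genes) and 3 fell (25.0%, beside 35.7%) in proliferating against freshly isolated cells, and 8 of 12 rose and 2 fell with libraries scaled to equal totals, beside 43.0 and 28.8%. In myotubes against proliferating cells 2 rose (16.7%, beside 28.6%) and 9 fell (75.0%, beside 25.5%). In myotubes against freshly isolated cells 2 rose (16.7%, beside 40.2%) and 8 fell (66.7%, beside 37.3%). Suv39h1, the histone methyltransferase reported with Malat1 in muscle precursors, had 224, 446 and 404 in freshly isolated cells, 1078, 1052 and 937 in proliferating cells and 201, 292 and 182 in myotubes. It was lower in myotubes than in proliferating cells (log2 change -2.21 ± 0.26 (SE), limma adjusted p = 5.2e-05), opposite to Malat1. Cbx1, a reader of the mark that Suv39h1 sets, had 601, 467 and 523 in freshly isolated cells, 1797, 1643 and 1634 in proliferating cells and 1650, 1589 and 1596 in myotubes, higher in both cultured stages than in freshly isolated cells (log2 change 1.68 ± 0.10 (SE) in proliferating cells, limma adjusted p = 2.53e-07).

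Among transcription factors of that list, Stat3, which carries cytokine signals, had 28719, 30128 and 25388 in freshly isolated cells, 637, 817 and 755 in proliferating cells and 1163, 1396 and 1328 in myotubes. It had the stage order of Malat1, with a log2 change of -5.25 ± 0.12 (SE) in proliferating against freshly isolated cells (limma adjusted p = 3.95e-10) and 0.82 ± 0.12 (SE) in myotubes against proliferating cells (limma adjusted p = 0.000204). Epas1, a hypoxia-inducible factor, had 667, 696 and 589 in freshly isolated cells, 17, 23 and 6 in proliferating cells and 61, 74 and 64 in myotubes, also in that order. Trp53, the tumour suppressor p53, had 2140, 2368 and 2503 in freshly isolated cells, 1896, 1766 and 1664 in proliferating cells and 622, 677 and 564 in myotubes, in the order of Neat1; its step in proliferating cells (log2 change -0.40, limma adjusted p = 0.00546) was lost with libraries scaled to equal totals (-0.09). Brca1, a DNA repair protein, had 41, 23 and 22 in freshly isolated cells, 1694, 1489 and 1555 in proliferating cells and 467, 576 and 330 in myotubes, highest in proliferating cells. Epas1 and Stat3 had log2 changes of -5.49 and -5.25 in proliferating cells, beside -2.98 for Malat1 and -3.32 for Neat1.

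Among other long non-coding RNAs, more fell than rose in proliferating cells. Of 38 listed, 37 were in the table, some under older names that RefSeq pairs with the symbols, and 30 were tested. In proliferating against freshly isolated cells 9 of the 30 rose, beside 37.6% of all genes, and 15 fell, beside 35.7%, with a median log2 change of -0.48. In myotubes against proliferating cells 10 rose (33.3%, beside 28.6%) and 8 fell (26.7%, beside 25.5%), and with libraries scaled to equal totals 7 of 30 rose and 10 fell, beside 22.8 and 29.1% of all genes under that scaling. Both sets of shares lie near the background. In myotubes against freshly isolated cells 7 of the 30 rose, beside 40.2%, and 18 fell, beside 37.3%, with a median of -1.18.

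Meg3, Rian and Mirg, maternally expressed RNAs of one imprinted domain, had the stage order of Malat1 with a much wider range. Meg3 had 29584, 27850 and 23912 in freshly isolated cells, 57, 83 and 88 in proliferating cells and 803, 1066 and 721 in myotubes (log2 change -8.48 ± 0.19 (SE) in proliferating against freshly isolated cells and 3.49 ± 0.19 (SE) in myotubes against proliferating cells, limma adjusted p = 3.91e-10 and 8.68e-07). Rian had 14203, 17926 and 14852 in freshly isolated cells, 78, 100 and 116 in proliferating cells and 2818, 3699 and 2429 in myotubes, and Mirg had 2652, 2748 and 2321 in freshly isolated cells, 15, 19 and 30 in proliferating cells and 259, 307 and 226 in myotubes. H19, an imprinted RNA abundant in forming muscle, was higher at each later stage, with 516, 550 and 433 in freshly isolated cells, 79813, 102182 and 96195 in proliferating cells and 343443, 293759 and 333303 in myotubes (log2 change 7.53 ± 0.13 (SE) in proliferating against freshly isolated cells, limma adjusted p = 1.3e-10). 1700020I14Rik, now named Oip5os1, also rose at both steps, with 845, 893 and 998 in freshly isolated cells, 2198, 2706 and 2572 in proliferating cells and 10828, 9786 and 11724 in myotubes. Nctc1, an RNA from a muscle enhancer region near H19, had 133, 115 and 127 in freshly isolated cells, 3, 17 and 18 in proliferating cells and 666, 536 and 711 in myotubes; its log2 change of -3.50 in proliferating against freshly isolated cells was -2.77 without proliferating replicate 1, and its log2 change of 5.84 in myotubes against proliferating cells was 5.10. Xist is in this list, and its myotube values go with the sex-linked genes given above.

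**Figure D2:**
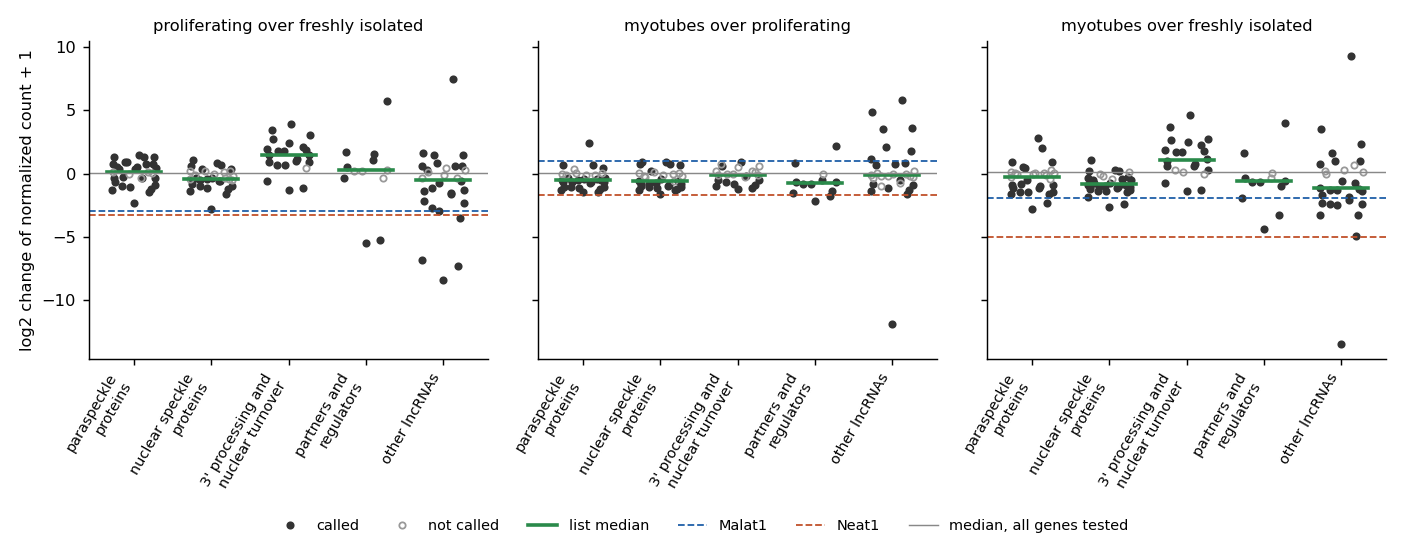
Log2 change of each tested gene (points; filled where called at a limma adjusted p below 0.05) in 5 lists, for proliferating over freshly isolated cells, myotubes over proliferating cells and myotubes over freshly isolated cells. Green bars are list medians, the grey line is the median of all 17291 genes tested, and dashed lines are Malat1 (blue) and Neat1 (orange). The list of 3′ end processing and turnover has its medians, 1.46 and 1.04, above the grey line in the comparisons with freshly isolated cells, while both RNAs lie well below it.

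Genes beside the 2 RNAs on chromosome 19 were examined within 250 kb. Of 34 protein-coding genes there, 32 were in the table and 28 were tested. In proliferating against freshly isolated cells 12 rose (42.9%, beside 37.6% of all genes) and 11 fell (39.3%, beside 35.7%), with a median log2 change of 0.02 beside 0.07. In myotubes against proliferating cells 6 rose (21.4%, beside 28.6%) and 14 fell (50.0%, beside 25.5%). In myotubes against freshly isolated cells 11 rose (39.3%, beside 40.2%) and 13 fell (46.4%, beside 37.3%). In proliferating against freshly isolated cells both shares are near those of all genes.

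The gene nearest to the start of Neat1 is Frmd8os, an antisense gene whose annotated start is 0.1 kb away. It was listed at 9, 19 and 17 in freshly isolated cells, 2, 4 and 3 in proliferating cells and 7, 3 and 6 in myotubes, too low to be tested. These low values were highest in freshly isolated cells, as those of Neat1 were, and they overlap between proliferating cells and myotubes. Frmd8os overlaps Frmd8, and the strand setting used for counting is not stated in the sources used here. Frmd8, which stabilises a membrane protease complex and lies 4.2 kb from the 5′ side of Neat1, had 607, 543 and 610 in proliferating cells, against 218, 308 and 263 in freshly isolated cells, a rise with a log2 change of 1.17 ± 0.14 (SE) (limma adjusted p = 3.17e-05). It fell in myotubes against proliferating cells, with a log2 change of -0.88 ± 0.14 (SE) (limma adjusted p = 0.000446), beside -1.70 for Neat1 and 1.02 for Malat1.

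Farther out, several genes on the Malat1 side had the stage order of Neat1. Rela, the p65 subunit of NF-kB, had 4549, 5702 and 5802 in freshly isolated cells, 987, 909 and 883 in proliferating cells and 619, 608 and 622 in myotubes (log2 change -2.52 ± 0.11 (SE) in proliferating against freshly isolated cells, limma adjusted p = 1.88e-08). Ltbp3, which stores latent TGF-beta, had 5998, 4447 and 4774 in freshly isolated cells, 2419, 1903 and 2223 in proliferating cells and 872, 952 and 1001 in myotubes, and Sipa1, an inhibitor of the GTPase Rap1, had 1384, 911 and 1162 in freshly isolated cells, 521, 446 and 441 in proliferating cells and 181, 213 and 194 in myotubes. Map3k11, a kinase of the JNK pathway, had 1251, 884 and 971 in freshly isolated cells, 669, 615 and 618 in proliferating cells and 301, 296 and 270 in myotubes. Kcnk7, a member of the 2-pore potassium channel family, had 135, 135 and 122 in freshly isolated cells, 20, 20 and 39 in proliferating cells and 4, 4 and 4 in myotubes, at low values. Of 13 genes tested on the Malat1 side 3 rose and 7 fell in proliferating against freshly isolated cells, beside 37.6 and 35.7% of all genes, and 3 rose and 9 fell in myotubes against freshly isolated cells, beside 40.2 and 37.3%. Of 15 on the Neat1 side, 9 rose and 4 fell beside the same 37.6 and 35.7%, and 8 rose and 4 fell beside the same 40.2 and 37.3%. The split into sides was made after the values were seen and has no test.

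On the Neat1 side the largest changes were rises. Capn1, a calcium-dependent protease, had 122, 76 and 79 in freshly isolated cells, 637, 747 and 837 in proliferating cells and 1201, 1191 and 1178 in myotubes (log2 change 3.01 ± 0.18 (SE) in proliferating against freshly isolated cells, limma adjusted p = 2.05e-07), and the antisense gene Gm10814 overlaps it. Cdc42ep2, an effector of the GTPase Cdc42, had 4, 7 and 8 in freshly isolated cells, 12, 25 and 19 in proliferating cells and 214, 241 and 256 in myotubes (log2 change 3.65 ± 0.37 (SE) in myotubes against proliferating cells, limma adjusted p = 1.95e-05). Pola2, a subunit of DNA polymerase alpha, and Cdca5, which holds sister chromatids together, were highest in proliferating cells, with 70, 115 and 177 in freshly isolated cells, 1147, 1168 and 1083 in proliferating cells and 392, 418 and 406 in myotubes for Pola2 and 33, 3 and 8 in freshly isolated cells, 310, 315 and 300 in proliferating cells and 67, 114 and 68 in myotubes for Cdca5. The log2 change of Cdca5 in proliferating against freshly isolated cells, 4.85, was 5.69 without freshly isolated replicate 1 and 4.14 without freshly isolated replicate 2, and its call in myotubes against proliferating cells (limma adjusted p = 0.025) was lost when any proliferating library, myotubes replicate 1 or myotubes replicate 3 was left out (limma adjusted p = 0.0618 to 0.0776). Tigd3, which lies among them, was lower at each later stage, with 122, 157 and 97 in freshly isolated cells, 41, 34 and 34 in proliferating cells and 16, 18 and 8 in myotubes. Over the 3 comparisons the other tested genes within 250 kb had log2 changes between -2.67 and 2.63. The lower end was Ovol1 in proliferating against freshly isolated cells, which was -3.29 without proliferating replicate 1.

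**Figure D3:**
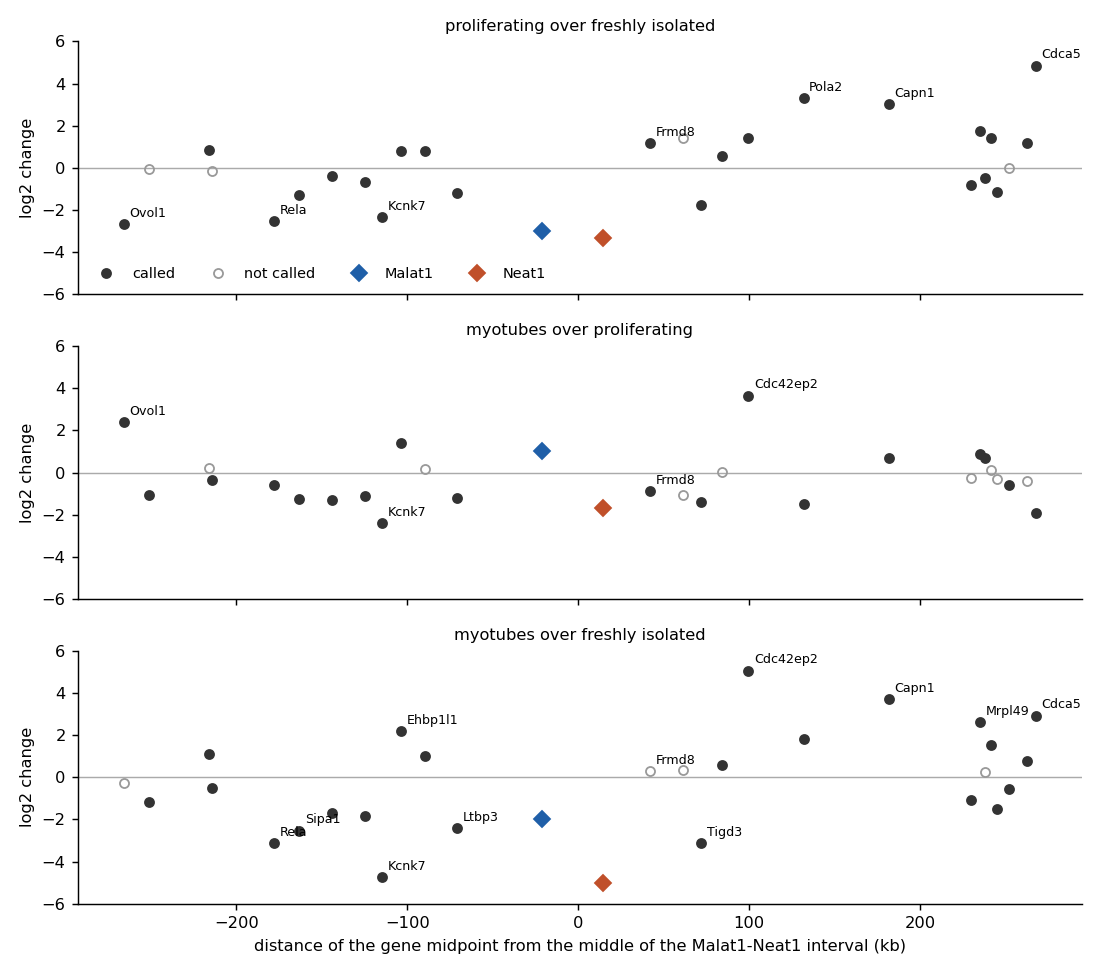
Log2 change of tested protein-coding genes within 250 kb of Malat1 or Neat1 (points; filled where called at a limma adjusted p below 0.05) against the distance of each gene's midpoint from the middle of the Malat1 to Neat1 interval in kb, with Malat1 (blue) and Neat1 (orange) as diamonds. Panels from top to bottom are proliferating over freshly isolated cells, myotubes over proliferating cells and myotubes over freshly isolated cells. Frmd8, next to Neat1, lies at 1.17 in the top panel, away from the diamonds at -2.98 and -3.32.

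Genes with a pattern like that of each RNA were found by the root mean square difference of log2(value + 1), centred per gene, over the 9 libraries, among 9997 other tested genes with a mean of at least 100. These genes were chosen for their pattern, so their values are a description. The 5 most like Malat1 were Per3 (0.106), Foxo3 (0.124), Clk1 (0.132), Ccdc117 (0.137) and Hcfc1r1 (0.142). Per3, a gene of the circadian clock, had 1177, 1286 and 1272 in freshly isolated cells, 158, 145 and 142 in proliferating cells and 319, 290 and 316 in myotubes. Foxo3, a transcription factor held back by growth factor signalling, had 6798, 5993 and 6914 in freshly isolated cells, 822, 845 and 839 in proliferating cells and 1588, 1565 and 1952 in myotubes. Clk1, a kinase of SR splicing factors that is found in nuclear speckles and is one of the speckle list, had 10693, 12511 and 11603 in freshly isolated cells, 1678, 1678 and 1632 in proliferating cells and 3252, 3155 and 3103 in myotubes. In each of the 5, myotubes lay above proliferating cells and below freshly isolated cells without overlap, as for Malat1.

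The 5 most like Neat1 were Sobp (0.183), Il17ra (0.187), Erf (0.215), Gli1 (0.217) and Plk3 (0.222). Sobp had 1501, 1659 and 1375 in freshly isolated cells, 181, 147 and 161 in proliferating cells and 59, 57 and 57 in myotubes. Il17ra, a receptor subunit for interleukin 17, had 7377, 6069 and 6127 in freshly isolated cells, 858, 767 and 858 in proliferating cells and 198, 212 and 225 in myotubes. Erf, a transcriptional repressor of the ETS family, had 15720, 13152 and 13183 in freshly isolated cells, 1901, 1579 and 1724 in proliferating cells and 578, 602 and 528 in myotubes, and Gli1, a transcription factor and target of Hedgehog signalling, had 1057, 789 and 786 in freshly isolated cells, 81, 64 and 91 in proliferating cells and 22, 32 and 33 in myotubes. Each of the 5 was lower at each later stage. The 2 RNAs were far apart on this measure, at 1.379: Neat1 was at place 4019 in the list of genes most like Malat1, and Malat1 at place 1062 in that for Neat1.

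**Figure D4:**
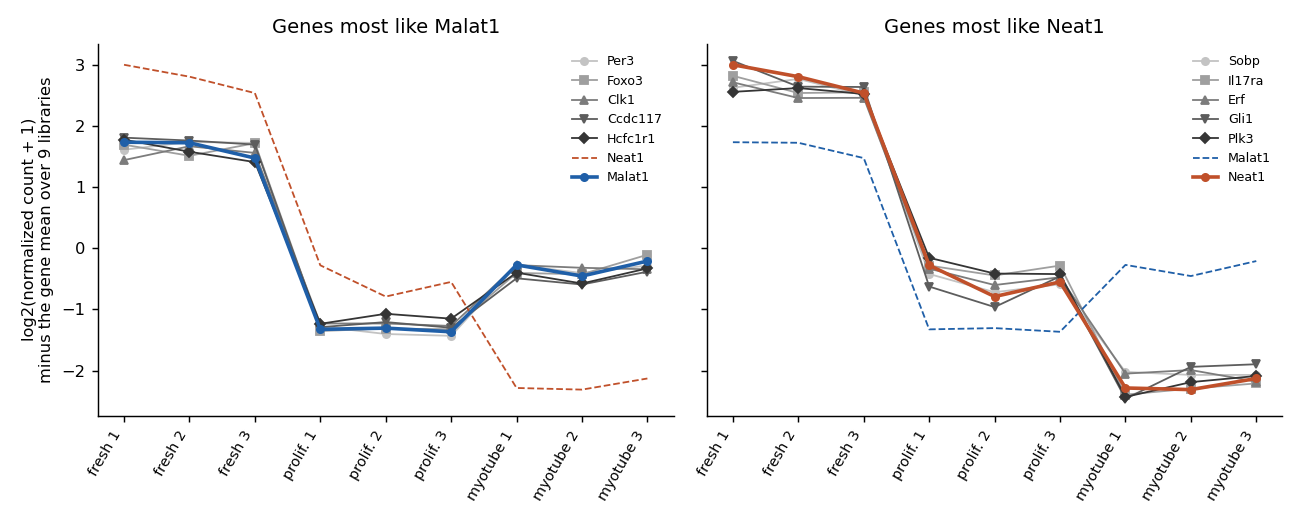
Log2(normalized read count + 1) minus the gene's mean over 9 libraries, for Malat1 and the 5 genes most like it (left) and Neat1 and the 5 genes most like it (right); the other RNA of the pair is dashed. Libraries run from freshly isolated through proliferating to myotubes, 3 each. Both sets are highest in freshly isolated cells; in myotubes the set of Malat1 is higher and the set of Neat1 lower than in proliferating cells.

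The Malat1 promoter is shown because the RNA's level changed most between the freshly isolated and the proliferating stage, and regulators of the stress and muscle programmes bind short motifs that can be looked up. Neat1 also changed between these stages, but the RefSeq promoters used here hold no entry for it. The sequence is that of RefSeq for GRCm38.p6, chr19:5802623-5802922, minus strand, from 250 bases before to 50 after the start, and capitals mark motif matches.
Malat1 promoter: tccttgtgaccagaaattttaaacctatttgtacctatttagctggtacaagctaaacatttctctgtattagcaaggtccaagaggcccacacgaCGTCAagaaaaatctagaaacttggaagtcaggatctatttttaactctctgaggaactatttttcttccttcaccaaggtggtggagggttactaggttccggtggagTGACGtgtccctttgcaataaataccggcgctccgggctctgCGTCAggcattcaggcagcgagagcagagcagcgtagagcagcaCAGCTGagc
Matches were searched on both strands. CAGCTG, an E-box that MyoD and other bHLH factors can bind, was found 1 time, beginning at base 42 after the start, and 16.3% of the 32851 promoters in the table hold it. TGACG, the half-site of the cAMP response element, was found 3 times, beginning 154, 45 and 3 bases before the start. Of promoters, 20.8% hold it 1 or more times, and the share holding it 3 times was not counted. TGANTCA, the AP-1 site, TATAAA and CCAAT were not found in this window, and 7.81, 13.6 and 37.4% of promoters hold them. None of the motifs found overlaps another. These matches are letters in a window and say nothing of binding in these cells.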

How the data were processed

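Whole RNA of satellite cells was depleted of ribosomal RNA with RiboGone-Mammalian and made into libraries with the SMARTer Stranded Total RNA kit, per the labels' protocols, for 3 stages with 3 libraries each. The submitters' processing notes name the mouse builds mm10 and GRCm38, STAR 2.4.0a and featureCounts 1.4.5-p1 of Subread. The deposited table holds 1 value per gene and library, treated as a score because the values are read counts that the authors scaled between libraries and rounded. The scaling tool and the strand setting are not stated in the sources used here. Columns were matched to stages by the short stage names in the table's header, those of freshly isolated cells as the stage that remained, and 0 value columns could not be mapped.

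The count tests of edgeR and DESeq2 need unscaled counts and were not used. Log2(value + 1) was fitted with limma 3.58.1 (R 4.3.3; lmFit and eBayes with a trend) over all 9 libraries together, for the 17291 of 45706 genes with values of at least 10 in at least 3 libraries; 13802 genes were at 0 in every library. P-values were adjusted by Benjamini and Hochberg over all genes tested, and a gene was called below an adjusted p of 0.05. "Rose", "fell" and counts of genes that did so refer to these calls. A fold change on the log2(value + 1) scale understates changes of low genes. Tables were handled with Python 3.11.15, pandas 2.3.3 and numpy 2.4.6, and plots made with matplotlib 3.10.9. The fit was tested on simulated data. Reads per library were estimated from the step between low values, which depends on how the authors scaled each library. In 20 simulated libraries the step was recovered within 0.01 in 19.

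Gene positions, types and exon lengths came from GENCODE vM21, which held 45143 of the table's genes, and the promoter sequence from RefSeq for GRCm38.p6. The members and the gene lists were chosen with earlier results of these data known. Genes named are Malat1 and Neat1, genes within 250 kb, the 4 largest called changes of each list in each comparison, core paraspeckle proteins and the 5 genes most like each RNA among genes with a mean of at least 100. Further members of a list that the text names, and Xist and the Y-linked genes, were chosen after their values were seen. Alternatives were pseudocounts of 0.5 and 5, no filter, 3 other scalings, fits of only the 2 stages compared, a replicate block and leaving out libraries. With 3 libraries a stage an exact permutation test of a single value cannot pass 0.05, and none was used. Some genes covered by this rule are not reported here; counts over lists include all tested members.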

Additional observations from a re-analysis of the deposited data

How the results depend on the processing

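The differences of Malat1 and Neat1 between stages kept their direction under the alternatives reported for them. Some of these could not move the differences: the replicate block, leaving out a library of the stage not compared and, at such levels, other pseudocounts. With libraries scaled to equal totals the Malat1 log2 difference was -2.67 in proliferating against freshly isolated cells and 0.85 in myotubes against proliferating cells, and -2.75 and 0.74 with Gm26917 left out of the totals. For Neat1, -3.02 in proliferating against freshly isolated cells with equal totals and -1.98 in myotubes against proliferating cells without Gm26917 were the values that moved by more than the spread between libraries. The median over all genes moved in the same direction as the members under these scalings, from 0.066 to 0.369 and 0.288 in proliferating against freshly isolated cells and from 0.038 to -0.124 and -0.23 in myotubes against proliferating cells. With 1 library left out the Malat1 differences lay between -3.06 and -2.93, 0.97 and 1.09, and -2.04 and -1.88, and those of Neat1 between -3.45 and -3.19, -1.83 and -1.57, and -5.14 and -4.91, in proliferating against freshly isolated cells, myotubes against proliferating cells and myotubes against freshly isolated cells.

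Shares depend on what the total holds. Without Gm26917 in it, Malat1 had mean shares of 2.4734% in freshly isolated and 0.3662% in proliferating cells and Neat1 of 0.8092% in freshly isolated cells. Over protein-coding genes plus the RNA itself, Malat1 had 2.6666, 0.3851 and 0.6469% in freshly isolated cells, proliferating cells and myotubes, and Neat1 had 0.8897% in freshly isolated cells and 0.0254% in myotubes.

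Of 231 changes of 81 named genes, 204 were called. Leaving out a library ended the call of 12 changes and gave 9 more a call, and other settings ended 13 and gave 11. Sf3b1 in myotubes against proliferating cells turned to -0.04 with Gm26917 left out of equal totals. Slc25a45, listed at 0 in freshly isolated replicate 1, had a log2 change of 0.33 in myotubes against freshly isolated cells that was -1.55 without that library, -1.55 without it and proliferating replicate 1, and between -1.55 and 1.55 with any 1 library left out. Its values in freshly isolated cells were 0, 73 and 33, and why replicate 1 was at 0 was not tested.

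Across stages, deviations of same-numbered libraries from their stage means had correlations of -0.034 to 0.027. Those of libraries with other numbers had -0.058 to 0.059. These correlations cannot show whether same-numbered libraries came from the same animals. The sex-linked genes given above differ between the myotube and the other libraries, so myotube libraries share no animals with them. A block by replicate number therefore does not stand for shared animals in comparisons with myotubes. A fit with the replicate number as a block called 6446 genes higher and 6117 lower in proliferating against freshly isolated cells, 4843 and 4245 in myotubes against proliferating cells and 6916 and 6395 in myotubes against freshly isolated cells, and ended 2 calls among the named genes. Freshly isolated replicate 1 rests on an estimated 12.0 M reads, the fewest, and low genes there are least precise.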
